A study of Mus musculus with 6 samples.

Results

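The forkhead (Fox) genes encode transcription factors that share a winged-helix DNA-binding domain, and they were taken from the gene tables as every symbol made of Fox, a subfamily letter and a number. This gave 37 genes of the 16668 listed, of which 36 are described. RNA was sequenced in 6 libraries of E14 mouse embryonic stem (mES) cells of strain 129/Ola, grown without feeders in 2i medium, which holds the MEK inhibitor PD0325901 (1 µM) and the GSK3 inhibitor CHIR99021 (3 µM), with 1000 U/ml LIF. Small interfering RNA (siRNA) was used to knock down (KD) Ring1B, the ubiquitin ligase of Polycomb repressive complex 1 that Rnf2 encodes, or Dzip3, a ubiquitin ligase of histone H2A. Each of 3 labelled groups (control siRNA, Ring1B-KD, Dzip3-KD) held 2 libraries, and all 6 shared the cells, the inhibitors and LIF. Each value was a deposited RPKM, the reads of a gene scaled to its length and to the mapped reads of the library, so that levels of genes could be compared per length.

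The condition word in the file name differed from the sample label in 4 of the 6 libraries, and both are given here. Library 1 carried the word control and the label control 1. Library 2 carried the word Ring1BKD and the label control 2. Library 3 carried the word Dzip3KD and the label Ring1B-KD 1. Library 4 carried the word control and the label Ring1B-KD 2. Library 5 carried the word Ring1BKD and the label Dzip3-KD 1, and library 6 carried the word Dzip3KD and the label Dzip3-KD 2. The words were compared within libraries 1 to 3 and within libraries 4 to 6, the 2 file sets, each of which held every word. Rnf2 stood at 30.6, 20.4, 26.8, 28.8, 19.4 and 28.2 RPKM in libraries 1 to 6, so that the libraries with the word Ring1BKD were the lowest (a log2 difference of -0.55, SE 0.13, limma adjusted p = 0.232). Dzip3 stood at 2.24, 2.68, 1.18, 1.89, 1.70 and 1.31 RPKM, so that the libraries with the word Dzip3KD were the lowest (log2 change -0.45, SE 0.21, limma adjusted p = 0.754). That change was -0.25 without library 3 and -0.73 with limma-voom on recovered reads. Neither targeted gene passed the adjusted test by word, with an unadjusted limma p of 0.00302 for Rnf2 and 0.0698 for Dzip3. Under the labels the lowest Rnf2 values lay in a library labelled control and a library labelled Dzip3-KD. Values below are therefore given for libraries 1 to 6 in this order, and a group is named by its word or its label without a statement that a KD took place.

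The depth recovered from the RPKM values was 3015349 to 3583612 mapped reads per library, at which 3 reads of a gene of 2 kb correspond to 0.419 to 0.497 RPKM. Log2 levels correlated between libraries at r of 0.960 or more within a file set and 0.957 or less between sets, as a description over genes of the same libraries. All 9 ES cell markers were expressed, with a summed level of 1527 to 1991 RPKM. Markers of primitive endoderm (2 of 7, Dab2 and Lama1), fibroblasts (1 of 7, Thy1), trophectoderm (1 of 5, Gata3), neural cells (3 of 5), primed epiblast (3 of 4) and mesoderm (0 of 3) reached a mean of 0.5 RPKM in fewer members. Among these, 3 fibroblast markers and 1 trophectoderm marker had no listed value. The summed primitive endoderm level was 5.69 to 6.62 RPKM in libraries 1 to 3 and 4.33 to 5.09 RPKM in libraries 4 to 6.

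Forkhead proteins bind DNA around a core that reads TAAACA on either strand, and they act in many lineages as pioneer factors, signal effectors or repressors. FoxA proteins open chromatin in endoderm and liver, FoxO proteins are held out of the nucleus when AKT phosphorylates them, Foxh1 brings Smad2 and Smad4 to targets of Nodal, and Foxm1 drives genes of mitosis. Foxd3 is required to maintain the pluripotent epiblast, and many of the other members are known as regulators of a differentiated lineage.

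The sequences at the starts of member genes are shown first, as they span the range of CpG content in the family. RefSeq promoters (assembly GRCm38.p6, 250 bases before to 50 bases after a start) were given for 24 of the 36 members, 29 promoters in all. The median promoter of an expressed member held 31 CpG dinucleotides (14 promoters, 5 to 59) and that of a silent member held 16 (15 promoters, 3 to 32), against a median of 7 over all 32851 promoters. These numbers are a description, and promoters of the same gene share sequence. Foxk2 held the most CpGs of the member promoters and was expressed, Foxd3 was an expressed pluripotency factor, and Foxr2 held the fewest and was silent. CpG dinucleotides are in capitals.
Foxk2, chr11:121259737-121260036, plus strand: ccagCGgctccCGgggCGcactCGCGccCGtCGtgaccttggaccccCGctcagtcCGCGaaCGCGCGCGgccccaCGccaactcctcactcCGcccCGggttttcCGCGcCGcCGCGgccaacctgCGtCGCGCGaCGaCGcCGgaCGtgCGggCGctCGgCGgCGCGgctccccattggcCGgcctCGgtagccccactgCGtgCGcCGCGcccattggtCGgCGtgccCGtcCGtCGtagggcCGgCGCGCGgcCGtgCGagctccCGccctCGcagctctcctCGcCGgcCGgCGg
Foxd3, chr4:99656049-99656348, plus strand: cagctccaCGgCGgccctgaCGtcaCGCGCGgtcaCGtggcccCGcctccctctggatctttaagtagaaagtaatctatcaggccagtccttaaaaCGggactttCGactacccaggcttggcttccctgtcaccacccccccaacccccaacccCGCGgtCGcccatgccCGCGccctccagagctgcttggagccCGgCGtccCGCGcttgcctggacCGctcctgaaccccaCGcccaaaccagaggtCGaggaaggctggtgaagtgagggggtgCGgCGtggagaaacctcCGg
Foxr2, chrX:153118538-153118837, plus strand: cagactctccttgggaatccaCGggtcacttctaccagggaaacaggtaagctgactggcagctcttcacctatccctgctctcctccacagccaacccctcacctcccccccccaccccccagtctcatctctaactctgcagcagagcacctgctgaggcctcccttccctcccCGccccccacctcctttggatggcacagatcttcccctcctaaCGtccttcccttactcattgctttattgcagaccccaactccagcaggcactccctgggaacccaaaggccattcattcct

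The 59 CpGs of the Foxk2 start and the 25 of the Foxd3 start stood beside mean levels of 8.05 and 8.83 RPKM, and the 3 of the Foxr2 start stood beside 0.140 RPKM. The forkhead core, searched as TAAACA on both strands, occurred in 13.4% of all promoters (4416) and in 5 of the 29 member promoters (17.2%). Of the 5, 4 belonged to the expressed members Foxa1 and Foxp1 and 1 to Foxp3, which was silent. Foxp1, a repressor that makes a stem cell isoform by alternative splicing, held the core at all 3 of its RefSeq starts, which are shown because no other member had the core at more than 1 start. The core is in capitals, as TAAACA or, read from the other strand, TGTTTA.
Foxp1, chr6:99028249-99028548, minus strand: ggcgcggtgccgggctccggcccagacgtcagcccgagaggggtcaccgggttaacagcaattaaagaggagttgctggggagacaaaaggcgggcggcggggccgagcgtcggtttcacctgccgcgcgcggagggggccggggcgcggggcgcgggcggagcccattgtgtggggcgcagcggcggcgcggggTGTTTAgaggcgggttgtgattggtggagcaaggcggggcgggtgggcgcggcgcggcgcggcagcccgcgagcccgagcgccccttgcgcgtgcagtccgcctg
Foxp1, chr6:99266466-99266765, minus strand: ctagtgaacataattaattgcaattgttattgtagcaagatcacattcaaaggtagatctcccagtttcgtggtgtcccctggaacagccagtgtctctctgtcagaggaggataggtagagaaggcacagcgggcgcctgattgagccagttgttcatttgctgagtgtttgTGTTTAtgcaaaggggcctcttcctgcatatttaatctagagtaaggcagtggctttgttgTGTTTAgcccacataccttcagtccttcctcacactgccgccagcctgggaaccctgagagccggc
Foxp1, chr6:99520944-99521243, minus strand: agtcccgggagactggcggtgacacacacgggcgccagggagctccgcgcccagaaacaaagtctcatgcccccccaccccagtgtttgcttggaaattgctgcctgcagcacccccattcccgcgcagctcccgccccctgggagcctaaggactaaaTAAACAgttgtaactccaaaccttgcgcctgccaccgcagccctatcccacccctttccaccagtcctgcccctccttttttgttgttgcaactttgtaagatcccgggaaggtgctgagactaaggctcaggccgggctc

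The 3 starts held 44, 5 and 13 CpGs in the order printed. A match describes these letters only, and the gene-level RPKM did not tell from which start or isoform the reads came.

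Of the 36 members, 18 were expressed, their mean level reaching 0.5 RPKM across all 6 libraries (50%), and 18 were silent. Forkhead genes that were not listed are not in these counts, so the split describes listed genes only. Over all genes listed, 69.2% (11538) reached this level. The family was led by Foxh1, and the 5 highest members, Foxh1, Foxo3, Foxn2, Foxm1 and Foxd3, held 59.5% of the summed mean of 122.2 RPKM. In single libraries the summed level of the family was 122.0, 127.3, 145.6, 119.1, 107.0 and 112.2 RPKM, and 16 to 19 members reached 0.5 RPKM. Library 3 (word Dzip3KD, label Ring1B-KD 1) held the highest value of 9 of the 18 expressed members, and library 5 (word Ring1BKD, label Dzip3-KD 1) the lowest value of 6. Recovered reads numbered 8202 over the expressed members and 117 over the silent members.

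**Figure D1:**
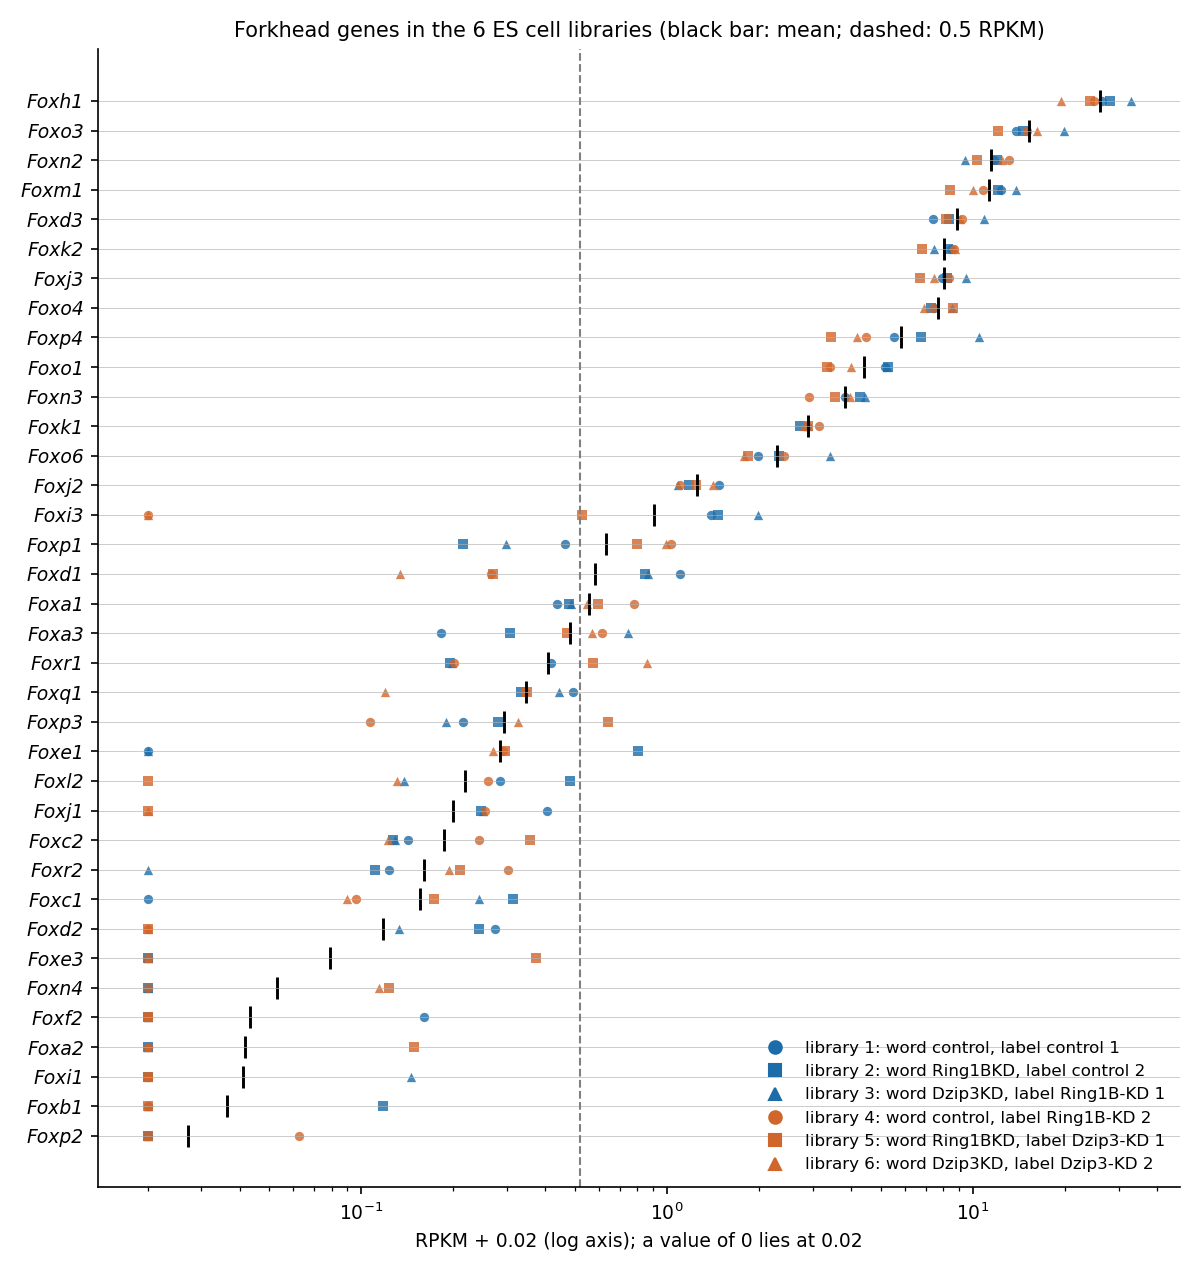
RPKM of each of the 36 forkhead genes in the 6 libraries, on a log axis with 0.02 added so that a value of 0 lies at 0.02. Colour marks the file set, the symbol marks the condition word, the black bar marks the mean, and the dashed line marks 0.5 RPKM, with 18 genes whose mean lies above it.

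By subfamily, 4 of 17 letters had all of their described members expressed (FoxH, FoxK, FoxM and FoxO). All described members were silent for 7 letters (FoxB, FoxC, FoxE, FoxF, FoxL, FoxQ and FoxR). The 4 FoxO genes together gave 29.6 RPKM, above the 25.9 RPKM of Foxh1 and the 15.3 RPKM of the 3 FoxN genes. FoxA genes gave 1.02 RPKM in all. Of the 17 letters, 6 had a single member among those described, which is not the full size of the subfamily where genes were not listed. Of the 11 with more, 5 lay wholly on one side (FoxC, FoxE, FoxK, FoxO and FoxR) and 6 held both expressed and silent members (FoxA, FoxD, FoxI, FoxJ, FoxN and FoxP).

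Among the signal effectors, Foxh1 (chr15:76498714-76500378, mm9), the Smad partner of the Nodal pathway, stood at 26.5, 28.0, 32.8, 24.8, 24.2 and 19.4 RPKM. It was the highest member in every library, and its libraries 4 to 6 all lay below its libraries 1 to 3. Foxo3 (chr10:41901647-41996561), an AKT-regulated factor of stress resistance and quiescence, stood at 13.8, 14.5, 19.9, 15.0, 12.1 and 16.1 RPKM. Foxo4 stood at 7.45, 7.28, 8.53, 7.37, 8.62 and 6.88 RPKM, the narrowest range of the FoxO genes for its level. Foxo1, the insulin effector of the liver, stood at 5.14, 5.25, 5.23, 3.38, 3.31 and 3.97 RPKM. Foxo6, known mostly from brain, was the lowest of the FoxO genes at 1.97, 2.31, 3.40, 2.39, 1.82 and 1.77 RPKM. The order Foxo3, Foxo4, Foxo1, Foxo6 held in all 6 libraries.

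Among the factors of proliferation and metabolism, Foxm1 (chr6:128312985-128325911), the activator of mitotic genes, stood at 12.4, 12.0, 13.9, 10.7, 8.42 and 9.97 RPKM. Its libraries 4 to 6 lay below its libraries 1 to 3. Foxk2, which binds the BAP1 deubiquitinase, stood at 8.44, 8.29, 7.42, 8.66, 6.81 and 8.71 RPKM. Foxk1, its paralogue and a partner of Sin3, stood at 2.85, 2.70, 2.87, 3.13, 2.88 and 2.77 RPKM, and its range was the narrowest for its level among the expressed members. Foxn2 stood at 11.7, 12.0, 9.39, 13.1, 10.3 and 12.4 RPKM. Foxn3, a repressor tied to the DNA damage checkpoint, stood at 3.81, 4.24, 4.43, 2.90, 3.52 and 3.95 RPKM. Values of the file sets overlapped for Foxk1, Foxk2, Foxn2 and Foxn3.

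Among the factors of pluripotency and lineage, Foxd3 stood at 7.41, 8.35, 10.9, 9.18, 8.13 and 9.06 RPKM, with overlapping sets. Foxj3 stood at 7.89, 8.22, 9.47, 8.34, 6.71 and 7.46 RPKM, and its paralogue Foxj2 at 1.46, 1.16, 1.06, 1.09, 1.22 and 1.39 RPKM. The sets overlapped for both. Foxp4 (chr17:48004082-48061594), a repressor of lung and gut development, stood at 5.52, 6.74, 10.5, 4.44, 3.42 and 4.16 RPKM, or 67, 93, 142, 59, 45 and 60 reads, with library 3 the highest. Foxp1 (chr6:98875332-99216526) stood at 0.443, 0.195, 0.277, 1.01, 0.777 and 0.969 RPKM, or 10, 5, 7, 25, 19 and 26 reads. Foxp1 was below 0.5 RPKM in libraries 1 to 3 and above it in libraries 4 to 6.

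A further 3 members at low level were lineage regulators. Foxi3 (chr6:70906525-70911060), a factor of ectodermal placodes and hair, stood at 1.38, 1.45, 1.97, 0, 0.508 and 0 RPKM, or 5, 6, 8, 0, 2 and 0 reads. Foxi3 was listed at 0 in libraries 4 and 6, where 3 reads would be 0.694 to 0.825 RPKM over the 6 depths. Foxd1 (chr13:99124200-99126660), a factor of kidney stroma and retina, stood at 1.08, 0.829, 0.843, 0.246, 0.249 and 0.113 RPKM, or 8, 7, 7, 2, 2 and 1 reads. Foxa1, a pioneer factor of endoderm, stood at 0.416, 0.457, 0.465, 0.760, 0.576 and 0.525 RPKM, or 4, 5, 5, 8, 6 and 6 reads. Each rested on few reads, and for none of the 3 did the sets overlap.

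The Poisson intervals of the pooled reads, which cover counting error only, lay above 0.5 RPKM for 15 of the 18 expressed members and spanned it for Foxa1, Foxd1 and Foxp1. Just inside the threshold lay Foxa1 (0.533 RPKM), Foxd1 (0.560) and Foxp1 (0.612), and just outside it lay Foxa3 (0.461), Foxr1 (0.387) and Foxq1 (0.326). In the order of the expressed members, 7 of the 17 neighbouring pairs had separate intervals. These were Foxh1 over Foxo3, Foxo3 over Foxn2, Foxm1 over Foxd3, Foxo4 over Foxp4, Foxp4 over Foxo1, Foxn3 over Foxk1, and Foxo6 over Foxj2. The intervals of the other neighbours, such as Foxn2 and Foxm1 or Foxk2 and Foxj3, overlapped, which does not show that their levels were alike. At 0.5 RPKM in every library, 14 members counted as expressed, and at 0.5 RPKM in any library 22 did.

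**Figure D2:**
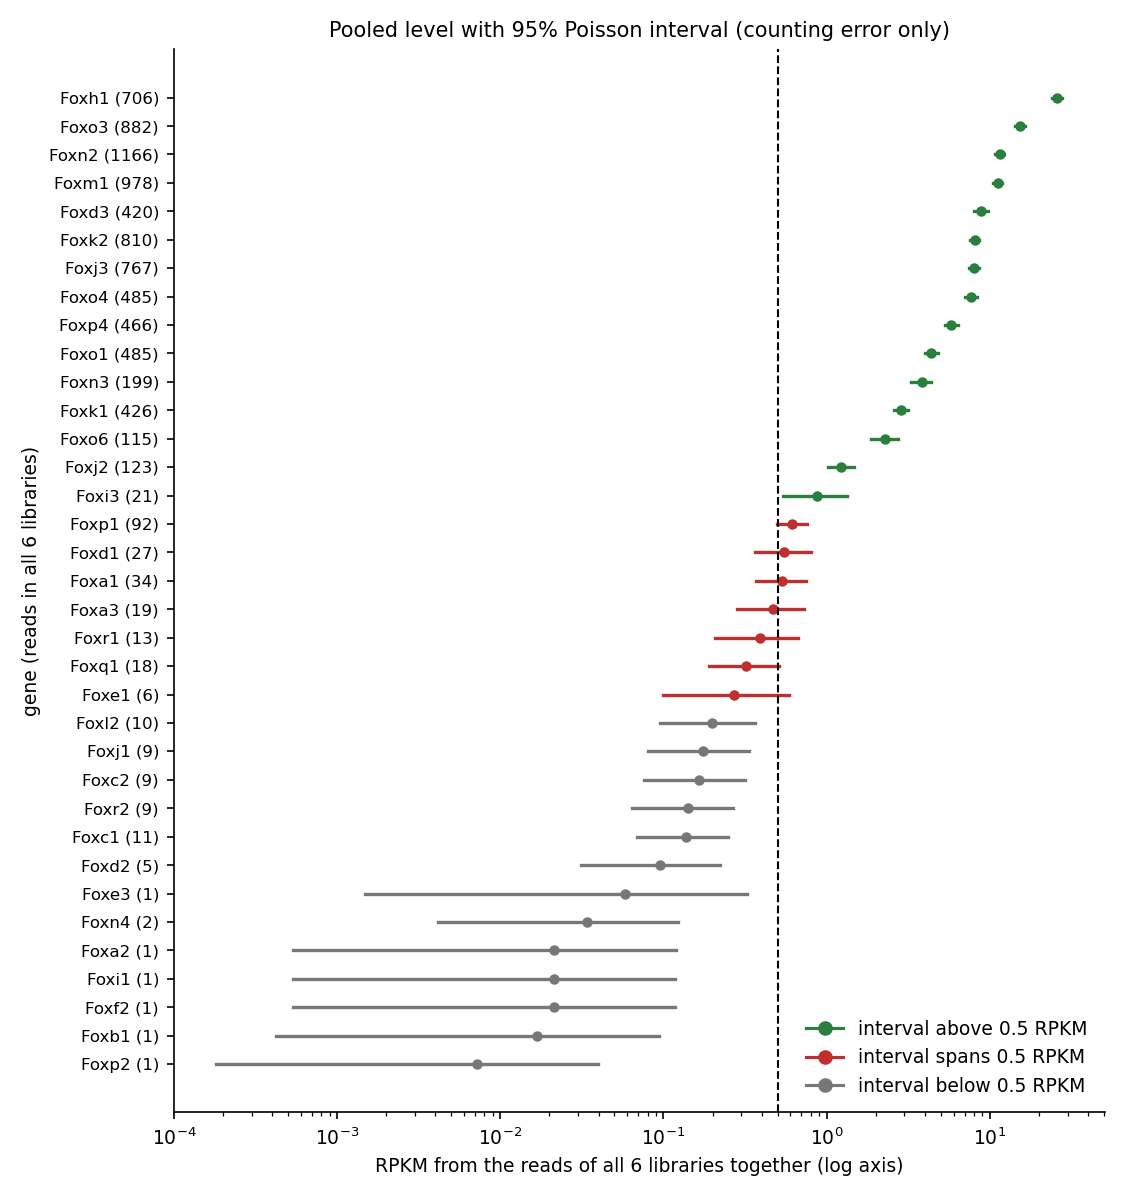
Level of the 35 forkhead genes with whole reads, from the reads of all 6 libraries together, on a log axis of RPKM, with 95% Poisson intervals and the reads in brackets. Green intervals lie above 0.5 RPKM (15 genes), red ones span it (7) and grey ones lie below it (13).

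The 18 silent members were mostly regulators of lineages other than the ES cell. They were the endoderm factors Foxa2 and Foxa3, the hypothalamic factor Foxb1, the mesenchymal and vascular factors Foxc1 and Foxc2, Foxd2, the thyroid factor Foxe1, the lens factor Foxe3, the mesenchymal factor Foxf2, the inner ear factor Foxi1, the motile cilia factor Foxj1, the ovarian factor Foxl2, the retinal factor Foxn4, the brain factor Foxp2, the regulatory T cell factor Foxp3, Foxq1, Foxr1 and Foxr2. Their means ran up to 0.461 RPKM. For 6 of them (Foxa2, Foxb1, Foxe3, Foxf2, Foxi1 and Foxp2) 1 read was recovered in all 6 libraries together. No annotated length matched for Foxa2, Foxe3 and Foxp2, so that 1 read is the fewest that fit their values. The intervals of 13 lay below 0.5 RPKM and those of Foxa3, Foxe1, Foxq1 and Foxr1 spanned it, while Foxp3 had values that were not whole reads.

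Of the silent members, 4 reached 0.5 RPKM in any library. Foxa3 stood at 0.163, 0.286, 0.727, 0.594, 0.450 and 0.547 RPKM, from 1 to 5 reads a library. Foxe1 stood at 0, 0.784, 0, 0.271, 0.274 and 0.250 RPKM, where the highest value was 3 reads. Foxr1 stood at 0.398, 0.175, 0.178, 0.182, 0.551 and 0.838 RPKM, the last from 5 reads. For these 3 genes a value above 0.5 RPKM was 3 to 5 reads. Foxp3 stood at 0.196, 0.261, 0.169, 0.0865, 0.622 and 0.307 RPKM. Foxp3 overlaps Ppp1r3f and Ccdc22 on the opposite strand, and since the strand setting of the counting is not given in the sources used here, reads of these genes cannot be told apart. The same holds for the silent Foxb1, Foxe1 and Foxq1 and the expressed Foxj2, Foxj3, Foxn2, Foxn3, Foxo1 and Foxp4, each of which overlaps an annotated gene on the opposite strand.

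The silent members lay partly side by side. On chromosome 13 (mm9, GENCODE M1), Foxq1 (31650039 to 31652839), Foxf2 (31717685 to 31723272) and Foxc1 (31898515 to 31902504) followed each other at gaps of 64846 and 175243 bases, and all 3 were silent. On chromosome 4, Foxd2 and Foxe3 lay 16178 bases apart and both were silent. Foxj3 and Foxo6, 637960 bases apart on chromosome 4, were both expressed.

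The comparison by word asked whether forkhead genes moved in the libraries named for a Ring1B or Dzip3 KD. The 18 silent members were not tested. None of the 18 members tested passed an adjusted p of 0.05 between the words Ring1BKD and control, where 0.416% of all genes (48 of 11538) did. At an unadjusted p under 0.05 it was 0 members, against 8.31% of all genes. The smallest p belonged to Foxi3, at 1.45 against 1.38 RPKM in libraries 2 and 1 and 0.508 against 0 RPKM in libraries 5 and 4 (log2 change 0.32, SE 0.26, limma adjusted p = 0.772). By label the pair in libraries 1 to 3 was control 2 and control 1, and the pair in libraries 4 to 6 was Dzip3-KD 1 and Ring1B-KD 2. In 6 cases a member lay on the same side of control in both sets, 2 higher (Foxi3 and Foxn3, background 18.5%) and 4 lower (Foxk1, Foxk2, Foxm1 and Foxp1, background 40.6%). The median change of the members was -0.06 and that of all genes -0.08.

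Between the words Dzip3KD and control no member passed, either adjusted (0% of all genes) or at an unadjusted p under 0.05 (6.52%), and limma-voom on the recovered reads called 0 members in each comparison by word (0.75%, 0.0375% and 1.22% of all genes for Ring1BKD against control, Dzip3KD against control and Dzip3KD against Ring1BKD) and by label (0%). The smallest p belonged to Foxo3, at 19.9 against 13.8 RPKM in libraries 3 and 1 and 16.1 against 15.0 RPKM in libraries 6 and 4 (log2 change 0.30, SE 0.16, limma adjusted p = 0.761). On the same side of control in both sets lay 3 higher members (Foxn3, Foxo1 and Foxo3, background 22.3%) and 3 lower ones (Foxd1, Foxn2 and Foxp1, background 29.5%). The median change was 0.04 for the members and -0.03 for all genes. Both comparisons share the libraries with the word control.

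Between the words Dzip3KD and Ring1BKD again 0 members passed the adjusted test, against 0.676% of all genes (78). At an unadjusted p under 0.05 it was 1 member, Foxo3, against 10.1% of all genes. Foxo3 was higher with the word Dzip3KD in both sets, at 19.9 against 14.5 RPKM and 16.1 against 12.1 RPKM (log2 change 0.41, SE 0.16, limma adjusted p = 0.434). Its reads were 194 against 144 and 167 against 114. In both sets 7 members were higher (Foxd3, Foxj3, Foxm1, Foxn3, Foxo3, Foxp1 and Foxp4, background 34%) and 0 lower (background 20.5%). The median change was 0.09 for the members and 0.05 for all genes.

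**Figure D3:**
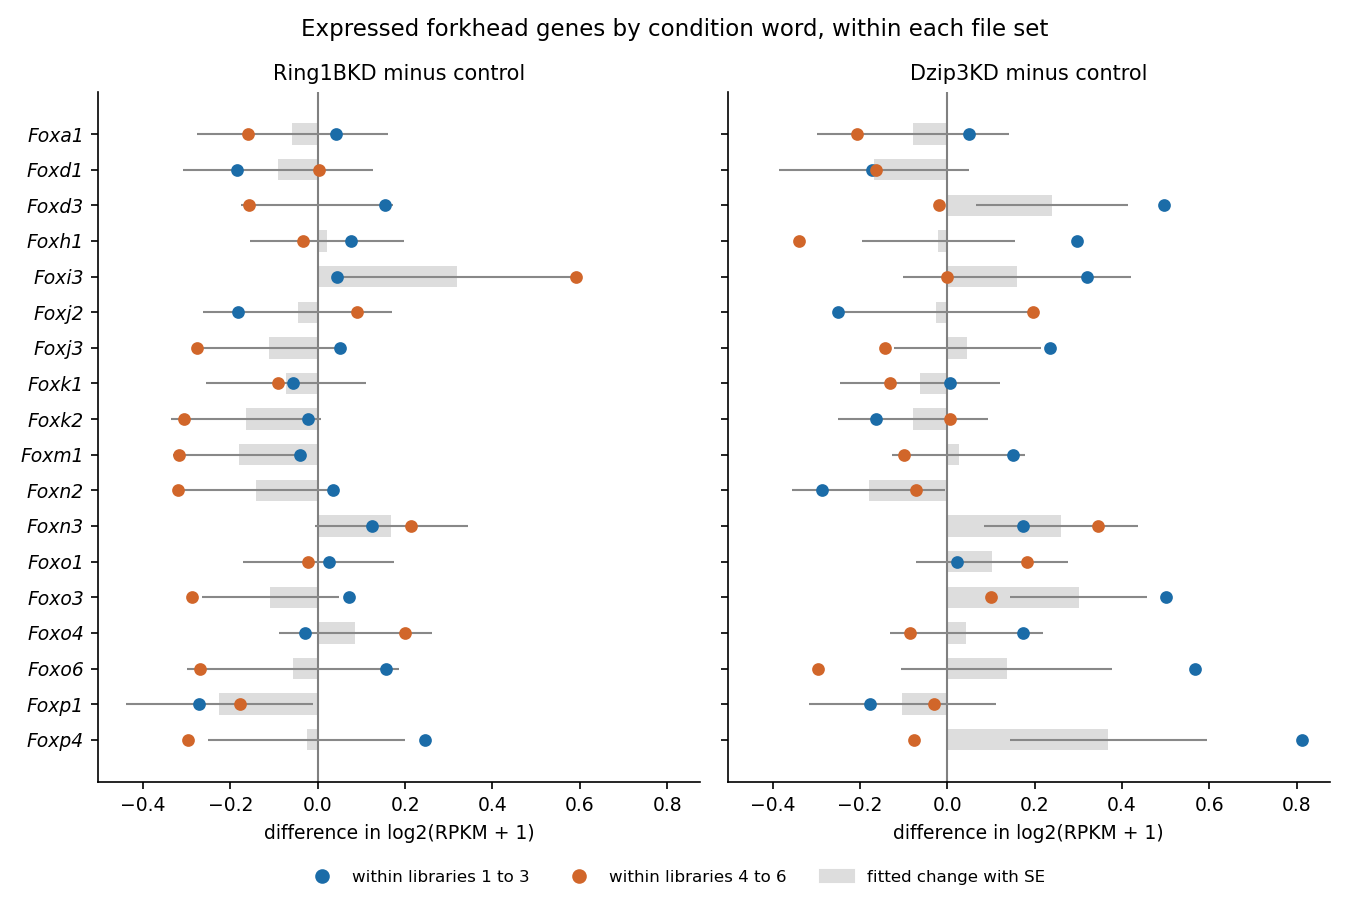
Difference of each of the 18 expressed forkhead genes between the words Ring1BKD (left) or Dzip3KD (right) and control, in log2(RPKM + 1), within libraries 1 to 3 (blue) and within libraries 4 to 6 (orange), with the fitted change as a grey bar and its SE as a line. For Foxo3 both sets lie above 0 on the right, while for most genes the sets lie on opposite sides of 0.

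By sample label, no member passed an adjusted p of 0.05 in any of the 3 comparisons, and no gene of the 11538 did (0% each). For the label Ring1B-KD against the label control, 0 members had an unadjusted p under 0.05 (5.1% of all genes). Without overlap, 6 members were higher in both libraries labelled Ring1B-KD (Foxa1, Foxd3, Foxj3, Foxk1, Foxo3 and Foxo6, background 14.9%) and Foxj2 was lower (background 18.9%). For the label Dzip3-KD against the label control, 1 member, Foxd1, had an unadjusted p under 0.05 (12.2% of all genes), at 0.249 and 0.113 against 1.08 and 0.829 RPKM (log2 change -0.73, SE 0.27, limma adjusted p = 0.374). Here 8 members were lower without overlap (Foxd1, Foxh1, Foxi3, Foxj3, Foxm1, Foxo1, Foxo6 and Foxp4, background 30.3%) and 2 were higher (Foxa1 and Foxp1, background 20.4%). When both KD labels were compared, Dzip3-KD minus Ring1B-KD, 0 members had an unadjusted p under 0.05 (4.63%), 6 were lower without overlap (Foxd3, Foxh1, Foxj3, Foxm1, Foxo6 and Foxp4, background 20.4%) and Foxj2 was higher (background 12.6%). Both libraries labelled control lay in libraries 1 to 3 and both labelled Dzip3-KD in libraries 4 to 6. Without a block, the difference between these labels is thus also one between the sets, while the label Ring1B-KD had 1 library in each set. Foxd1 and Foxi3 reached the mean of 0.5 RPKM needed for the test through libraries 1 to 3 alone. Foxa1 and Foxp1 did so through libraries 4 to 6 alone. The filter thus favoured a difference of these genes between the labels Dzip3-KD and control, and their counts there support nothing. With the file set as a block, the change of Foxd1 was -0.16 (limma adjusted p = 0.973), and it was -2.14 with limma-voom on recovered reads. The median changes of the members were 0.07, -0.10 and -0.19 in this order, and those of all genes -0.02, -0.07 and -0.03.

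Libraries 4 to 6 were also compared with libraries 1 to 3, a comparison of 3 against 3 libraries that was added after the data were seen. With an adjusted p under 0.05, 1 member (Foxi3) was called, against 7.62% of all genes (879). At an unadjusted p under 0.05 there were 7 members, against 26.5% of all genes, 6 of them lower in libraries 4 to 6 (background 14.4%) and 1 higher (background 12%). The same 6 members (Foxd1, Foxh1, Foxi3, Foxm1, Foxo1 and Foxp4) lay lower without overlap (background 15.5%), and Foxa1 and Foxp1 lay higher without overlap (background 13.1%). The median change was -0.15 for the members and -0.04 for all genes. Foxi3 and Foxd1 reached the mean of 0.5 RPKM needed for the test through libraries 1 to 3 alone, and Foxa1 and Foxp1 through libraries 4 to 6 alone, so that these had to differ and their counts support nothing. The labels do not name the sets, and what else separated them was not tested.

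Values of Foxi3, Foxd1 and Foxp1 are given here as a description, since the filter took these genes in through the set where they were high. Foxi3 fell from a mean of 1.6 ± 0.322 RPKM (SD, n = 3) to 0.169 ± 0.293 RPKM (SD, n = 3), or from 19 reads to 2 (log2 change -1.17, SE 0.21, limma adjusted p = 0.0214). The ratio of its reads per depth was 0.102 (exact 95% interval of counting error 0.0115 to 0.422), and the fitted change depends on the pseudocount. The call was lost without library 3 (limma adjusted p = 0.0678), without library 6 (0.0659) and with no filter on low values (0.109). Foxp1 went from 22 reads to 70, a ratio of 3.08 (1.88 to 5.22), with means of 0.305 and 0.919 RPKM (limma adjusted p = 0.0909). Foxp4 had means of 7.57 and 4.01 RPKM in libraries 1 to 3 and 4 to 6 (log2 change -0.74, SE 0.18, limma adjusted p = 0.0501), a read ratio of 0.525 (0.431 to 0.637). It passed without library 1 (0.0183) or without library 4 (0.0178), where its log2 change was -0.98 in either case. Without library 3 or without library 6 the log2 change of Foxp4 shrank to -0.53. Foxd1 had 22 and 5 reads (ratio 0.220, 0.0650 to 0.595; limma adjusted p = 0.0597). For the more abundant members the ratio was 0.684 for Foxo1 (limma adjusted p = 0.0924), 0.762 for Foxm1 (0.113) and 0.779 for Foxh1 (0.180). On the recovered reads, limma-voom called 6 of the 18 members, Foxd1, Foxi3, Foxm1, Foxo1, Foxp1 and Foxp4, against 15.9% of all genes (1692 of 10671), with adjusted p of 0.00115 (Foxp4) to 0.0374 (Foxm1). Of these, Foxd1, Foxi3 and Foxp1 are among those that reached the threshold through 1 set alone, so that their p-values and intervals support nothing.

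**Figure D4:**
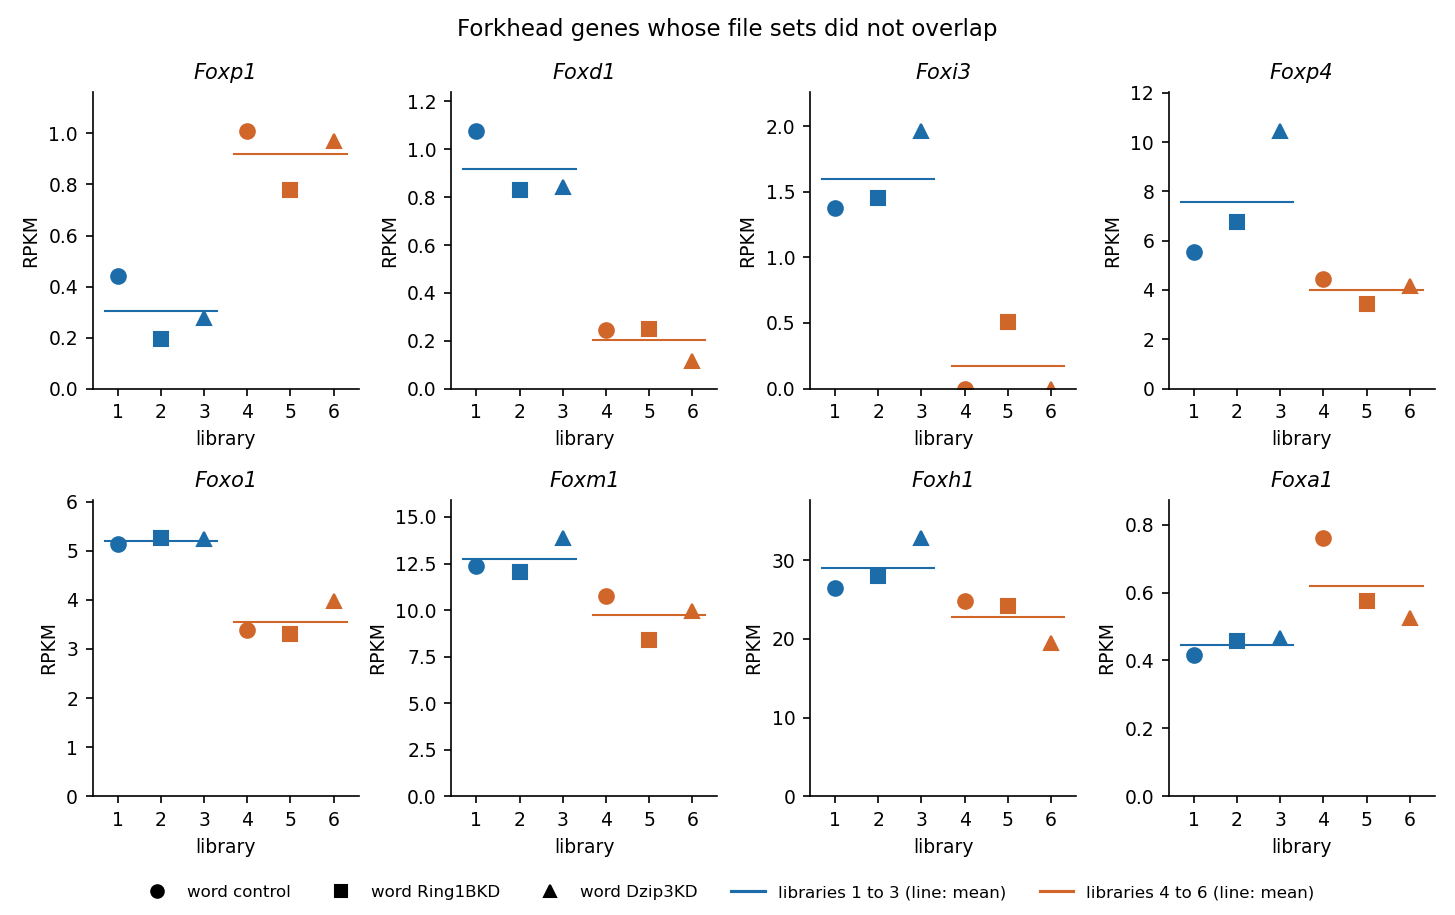
RPKM in libraries 1 to 6 of the 8 forkhead genes whose file sets did not overlap, with lines at the mean of each set of 3 libraries and symbols for the word. Foxp1 (means 0.305 and 0.919 RPKM) and Foxa1 were higher in libraries 4 to 6, and the other 6 genes were lower there.

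The partners of the members were counted from lists, with all values from the same fits. Of the 4 listed partners of Foxh1, such as Smad4 (a mean of 10.9 RPKM), Drap1 (9.46) and Smad2 (4.12), 0 passed the adjusted test by word or by set. Of the 14 regulators of FoxO, such as Ywhaz, Sgk1 and Sirt1, all were expressed and 0 passed. Of the 7 Foxk partners, 5 were lower and 2 higher in libraries 4 to 6 by sign. An adjusted p under 0.05 was reached by 1 of them, which was lower (3.67% of all genes). This was Hcfc1, at 23.0 against 37.4 RPKM (log2 change -0.67, limma adjusted p = 0.0184). Of the 5 Foxp partners, such as Hdac2 and Mta1, 0 passed. No gene of any list passed between words or between labels.

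Nodal targets of Foxh1 rose in libraries 4 to 6, where Foxh1 itself lay lower without overlap. Of 6 targets, 4 were tested and 3 rose, against 3.94% of all genes, with a median log2 change of 1.12 against -0.04 for all genes. Nodal itself, the TGF-beta family ligand, stood at 30.4, 22.4, 22.4, 43.1, 36.3 and 36.4 RPKM (log2 change 0.61, SE 0.11, limma adjusted p = 0.0199). Lefty2, a Nodal inhibitor, stood at 6.47, 4.27, 4.46, 26.8, 20.03 and 26.7 RPKM (log2 change 2.08, limma adjusted p = 0.00126). Lefty1, its close paralogue, stood at 0.620, 0.182, 1.85, 3.21, 3.82 and 6.96 RPKM (log2 change 1.63, limma adjusted p = 0.00564). The sets did not overlap for any of the 3, and reads of the near-identical Lefty1 and Lefty2 could have been split between them by the counting. By word, Lefty1 was highest with Dzip3KD in each set but did not pass (log2 change 0.87 against control, limma adjusted p = 0.658). For Foxh1 between the same sets the fitted change was -0.34 (SE 0.14, limma adjusted p = 0.180), and -0.15 without library 3 or without library 6.

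**Figure D5:**
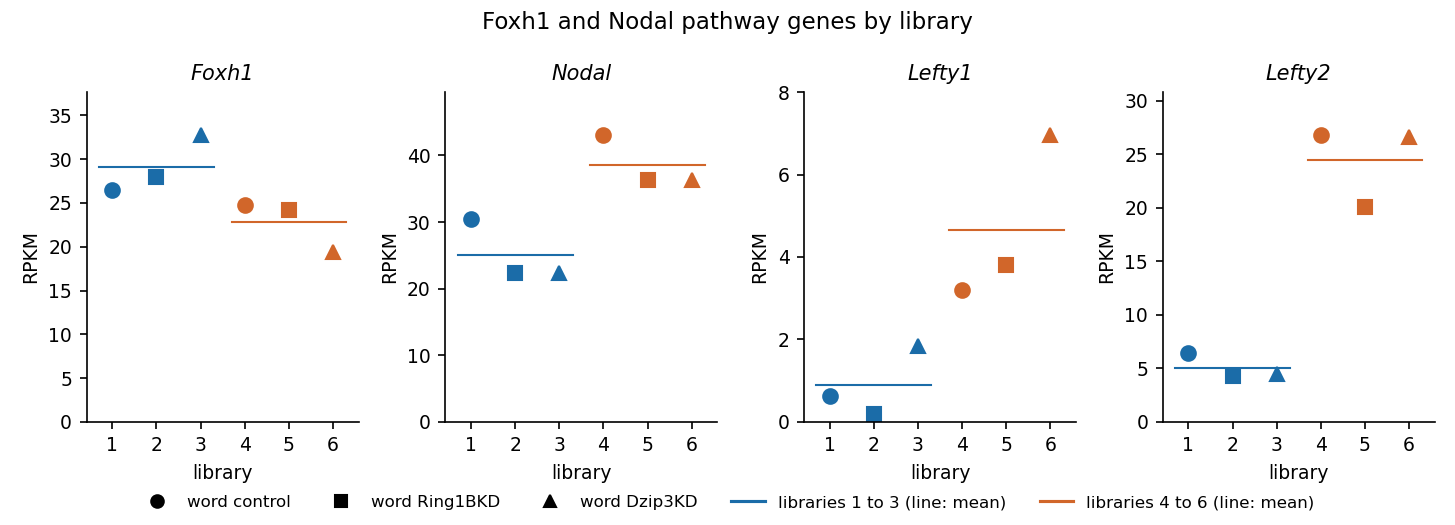
RPKM of Foxh1, Nodal, Lefty1 and Lefty2 in libraries 1 to 6, with symbols for the condition word and lines at the mean of each set of 3 libraries. Foxh1 lies lower in libraries 4 to 6 (means 29.1 and 22.8 RPKM), while Nodal, Lefty1 and Lefty2 lie higher there without overlap.

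Of the 15 Foxm1 targets, all expressed, 12 were lower and 3 higher in libraries 4 to 6 by sign (55.3% of all genes were lower), with a median log2 change of -0.26 against -0.04 for all genes. An adjusted p under 0.05 was reached by 2, both lower (3.67% of all genes), Cdc20, the activator of the anaphase-promoting complex, at 23.6 against 32.7 RPKM (log2 change -0.46, limma adjusted p = 0.0429), and Kif20a, a kinesin of cytokinesis, at 11.9 against 21.0 RPKM (log2 change -0.77, limma adjusted p = 0.0138). Kif20a was named after its values were seen. The summed level of the 15 was 314.0 to 359.0 RPKM in libraries 1 to 3 and 281.8 to 319.5 RPKM in libraries 4 to 6. Of the 10 FoxO targets tested, 1 passed between the sets, against 7.62% of all genes. This was Ccng2, an atypical cyclin also named after its values were seen, at 2.93 against 1.18 RPKM (log2 change 0.86, limma adjusted p = 0.0240). The most abundant FoxO targets, Sod2, Cat and Cdkn1b, did not pass.

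Some markers of the ES cell and of other cell types also differed between the file sets. At an adjusted p under 0.05, 7.62% of all genes (879) passed between the sets. Of the 9 ES cell markers, 3 passed, Tdgf1 higher (log2 change 0.58, limma adjusted p = 0.0229) and Esrrb (-0.43, limma adjusted p = 0.0404) and Utf1 (-0.67, limma adjusted p = 0.0147) lower in libraries 4 to 6. Of the 3 neural markers tested, Nes passed and was higher there (log2 change 0.88, limma adjusted p = 0.0221). Otx2 of the primed epiblast list was higher in libraries 4 to 6 (log2 change 2.25, limma adjusted p = 0.00236) and Dnmt3b of the same list was lower (log2 change -1.12, limma adjusted p = 0.0141). The summed neural marker level was 19.0 to 27.4 RPKM in libraries 1 to 3 and 26.1 to 37.9 RPKM in libraries 4 to 6. In bulk RNA, fewer cells of a type and less RNA per cell cannot be told apart, and the part of these markers in the differences of the forkhead genes was not tested.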

How the data were processed

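RNA of 6 libraries (TruSeq Stranded mRNA, MiSeq) was aligned to mm9 with the Illumina Analysis Pipeline, and the authors deposited RPKM values from uniquely mapped reads, without counts. Of the matched genes, 1 is not reported here. The members and lists were chosen with earlier results of these data known. Reads were recovered from the RPKM steps, whole within 0.01 for 93.2% of genes. Their absolute scale rests on GENCODE M1 gene lengths, which matched 20 of the 35 members with whole reads. For genes without a match the shortest length that gave whole reads was used, so that their reads are the fewest that fit. Differences were fitted with limma 3.58.1 (R 4.3.3, variance trend) on log2(RPKM + 1), which understates changes of low genes, two-sided, over the 11538 genes whose mean reached 0.5 RPKM, with Benjamini-Hochberg adjustment. The fit by file word had the file set as a block, since libraries of a set deviated together (r of 0.42 to 0.47), and the fit by sample label had none. The labels do not say that duplicates were separate cultures, so p-values measure the spread between these libraries. Every other member was named, with up to 3 genes of each list by mean level. Alternatives were no filter, a pseudocount of 0.1, a common 75th percentile, limma-voom on reads, other blocks and leaving out each library. The read recovery was tested on simulated data only for genes with a matched length, which were 29.0% of the genes with whole reads. For the remaining genes it was not tested. The fit by file word, scored for Dzip3KD against control, was also tested on simulated data. The other fits were not.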

Additional observations from a re-analysis of the deposited data

How the results depend on the processing

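The number of forkhead members with an adjusted p under 0.05 was 0 by word and by label in every alternative run. The replicate numbers of the labels did not pair the libraries (r of -0.24 to 0.04), and with the replicate block by label 0 members were called. Between the file sets, where 1 member was called, it was 0 with no filter on low values, 6 with limma-voom on recovered reads (15.9% of all genes), and 0 to 2 with a library left out (0 without library 3 or 6, 2 without library 1 or 4). The median log2 change of the members between the words Dzip3KD and Ring1BKD was 0.030 under a common 75th percentile, 0.10 with a pseudocount of 0.1 RPKM or with limma-voom on recovered reads, and 0.074 to 0.14 with a library left out. For the words Ring1BKD and control it ran from -0.17 to 0.060 with a library left out, turning sign without library 4, and was 0.014 under a common 75th percentile. For the words Dzip3KD and control it ran from -0.074 to 0.12, turning sign without library 1 or library 3. By label, that of Dzip3-KD against control was 0.036 with the file set as a block, where the sign turned. That of Dzip3-KD against Ring1B-KD was -0.34 to -0.11 with a library left out and -0.11 with the file set as a block. The cause was not tested. The number of expressed members was 14 to 22 over the thresholds tried and 17 or 18 with a library left out. Depth limits the low members: 3 reads on 2 kb are 0.419 to 0.497 RPKM, about the threshold itself. For a gene of that length, levels under it could not be told from 0 in a single library. The limit depends on length, as 3 reads are 0.112 to 0.133 RPKM for Foxp1 and 0.694 to 0.825 RPKM for Foxi3.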
